A study of Canis lupus familiaris with 77 samples.

Results

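The canine heart was compared with 14 non-muscle tissues by miR-seq, the sequencing of small RNA to count microRNAs (miRNAs). All 5 samples labelled heart were set against the 66 samples of every other tissue label except skeletal muscle (quadriceps), out of 76 samples with values. The 5 skeletal muscle samples were kept apart and used only for a separate comparison with heart. The groups were set by the tissue labels, and all miRNAs were examined in both directions.

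The study sequenced 16 tissues of untreated male Beagle dogs to map where each miRNA is found. The 14 non-muscle tissues were bone marrow, brain, colon, duodenum, ileum, jejunum, kidney, liver, lung, pancreas, plasma, sciatic nerve, testis and thymus, with 5 samples each apart from colon (4) and sciatic nerve (2). Per the labels, every group shared the sex, breed and untreated state, and the study's methods state that the animals were perfused with saline before the organs were taken. The labels name a single RNA preparation, but the methods give bone marrow and plasma RNA isolations of their own, so for those tissues preparation and tissue cannot be told apart. For sciatic nerve the study's methods describe a single pool of RNA split into replicates, while its results describe individual samples beside a pool. Whether the nerve libraries come from separate animals thus cannot be settled here. The labels do not name the chamber of the heart, so atrium and ventricle cannot be told apart here. They carry no dog number either, so samples of the same dog could not be linked, and p-values measure the spread between samples.

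Heart libraries held 420401 to 7896424 reads on miRNAs (replicates 1 to 5: 7896424, 420401, 1606594, 612933 and 1395280), within the range of 157871 to 7896424 over all libraries. Levels are given as RPM, the reads of an miRNA scaled to the same total of miRNA reads in every library, so levels of different miRNAs within a library are not corrected for how efficiently each one is sequenced. A floor was set at 3 reads, the upper 95% limit where nothing was counted, and it equals 0.380 RPM in the deepest and 7.14 RPM in the shallowest heart library. It covers counting error only. Of 650 miRNAs with reads, 480 passed the filter on low counts and were tested.

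miRNAs are short RNAs that bind messenger RNAs through a seed near their 5′ end and lower the output of protein. A group of them, often called myomiRs, is produced in heart and skeletal muscle cells, and several lie within genes of the myosin heavy chains, the motor proteins of the sarcomere. Heart tissue also holds endothelial cells, smooth muscle cells, fibroblasts and blood cells, each with miRNAs of its own. In a piece of tissue, fewer cells of a type and less of an miRNA per cell cannot be told apart.

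Names follow the deposited table. Those from dog annotation are given without prefix (cfa-miR-1 as miR-1), and those found through human or rat annotation keep hsa- or rno-. A deposited name can join entries of several species or near-identical copies, such as miR-133a with its copy miR-133c, and reads of such copies could not be separated. Here miR-30e stands for the 3p arm and miR-126 for the 5p arm, with the other arm under an hsa- name. Host genes are taken from the RefSeq table of the dog assembly UU_Cfam_GSD_1.0, which served for names and neighbours and not for coordinates.

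Before the comparisons, some libraries stood apart. Heart replicate 4 gave 27.5% of its reads to miR-486 and 21.3% to miR-10b, and it was the lowest of the 5 heart libraries for 78 of the 107 miRNAs with a heart median above 100 RPM. Heart replicate 3 was the highest of the 5 for 65 of those 107. The rank correlation between heart libraries was 0.892 to 0.944. Per heart library, its mean with the nearest other tissue was 0.831 (replicate 2, kidney) to 0.874 (replicate 3, colon). Among the skeletal muscle samples, replicate 4 held 675.9 RPM of miR-133a where the other muscle samples held 36539 to 108825 RPM, and 9.07 RPM of miR-1 where the others held 1390 to 3055 RPM. Both values lie within the range of the non-muscle samples, and the comparison with skeletal muscle is given with and without it.

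Against the mean of the 14 non-muscle tissues, edgeR called 111 of the 480 miRNAs higher in heart (23.1%) and 88 lower (18.3%) at an adjusted p under 0.05. More than 5-fold differences were called for 27 miRNAs that were higher (5.62%) and 22 that were lower (4.58%). The fitted fold is heart over the mean of the 14 tissue log levels, each tissue with equal weight. The largest folds belonged to miRNAs of striated muscle, and the largest lower folds to miRNAs of epithelia. Only 8 miRNAs (1.67%) were called more than 5-fold higher by edgeR against each of the 14 tissues taken singly. They were miR-1, miR-133a, miR-133b, miR-208a, miR-208b, miR-499, hsa-miR-1-5p and hsa-miR-133a-5p. Of these, hsa-miR-1-5p and miR-208a were at or under the floor in all non-muscle samples, so the size of their folds is not fixed. DESeq2 called neither against the mean of the 14 tissues (adjusted p = 0.211 and 0.220). No miRNA was called more than 5-fold lower against each of the 14 (0.0%) by edgeR, DESeq2 or limma, also at an unadjusted p under 0.05.

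**Figure D1:**
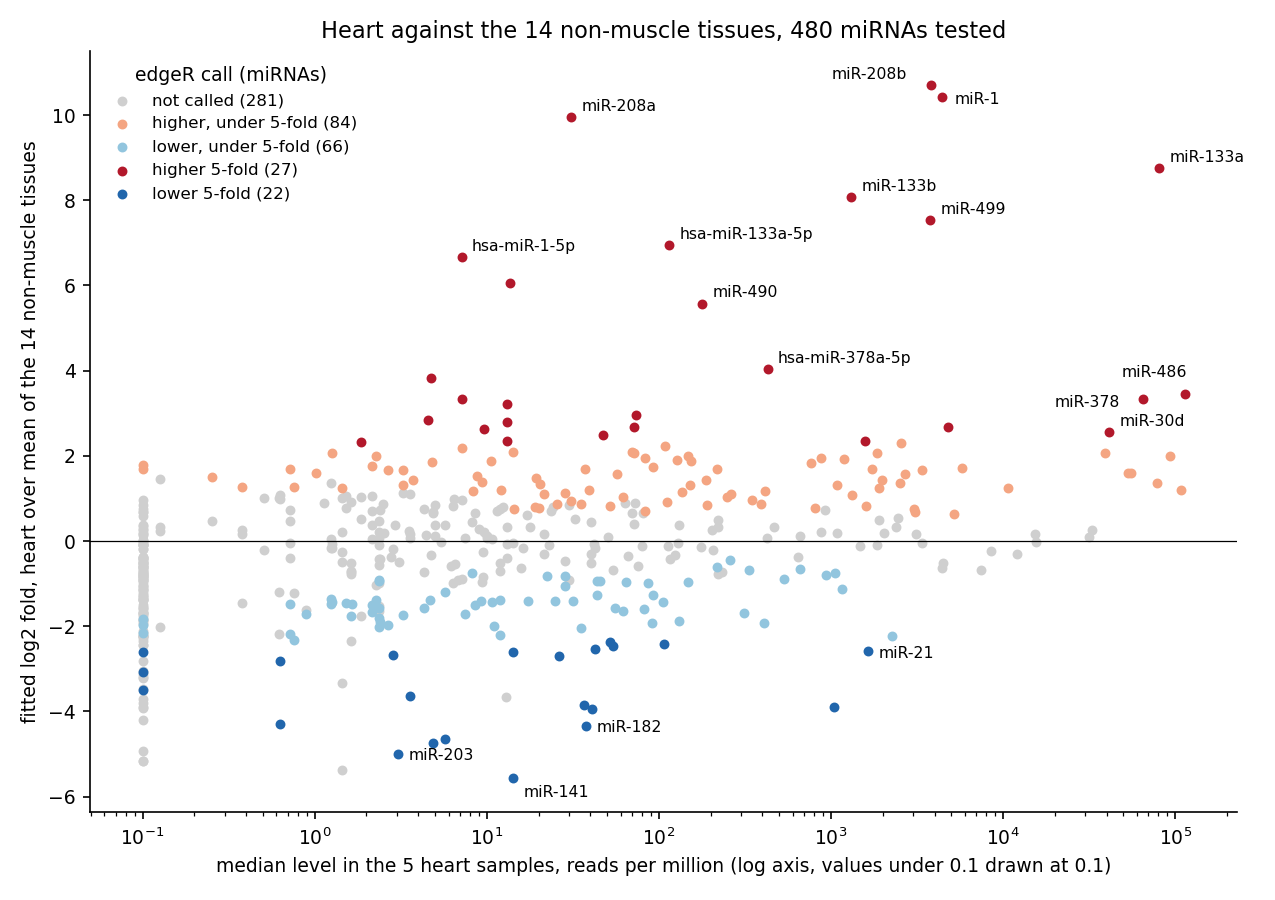
Fitted log2 fold of heart over the mean of the 14 non-muscle tissues (vertical axis) against the median level in the 5 heart samples in RPM (horizontal log axis, values under 0.1 drawn at 0.1), 1 point per tested miRNA, coloured by edgeR call. The striated muscle miRNAs lie above a log2 fold of 6 over levels from 7.14 RPM (hsa-miR-1-5p) to 80340 RPM (miR-133a), except miR-206 at 1.68 and a median of 0 reads, and the lowest point is miR-141 at -5.56.

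The lower calls differed between the tools for miRNAs that were not read in some tissue. Where at least 1 of the 14 tissues had 0 reads in all its libraries, as for 179 of the 480 miRNAs, edgeR called none lower in heart, also at an unadjusted p under 0.05, but 30 higher, although 21 of the 179 had a fitted fold below 1/5. DESeq2 called 19 of the 179 lower and limma 32. Among the other 301 miRNAs edgeR called 81 higher and 88 lower. Over all 480, these tools called 126 and 127 miRNAs lower and 91 and 90 higher, so the share of higher calls was 55.8% with edgeR, 41.9% with DESeq2 and 41.5% with limma. limma was chosen after the data had been seen.

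Of the 13 detected miRNAs of the striated muscle list, 10 passed the filter. All 10 were called higher, 9 of them over 5-fold (23.1% and 5.62% of all tested miRNAs). Their median log2 fold was 7.81 where the median over all 480 was -0.12. The median ratio of mean RPM, heart over the 66 non-muscle samples, was 88.6 for the list and 0.519 over all tested miRNAs, with miRNAs at or under the floor set at their bound. Summed over the list, heart libraries held 44323, 92219 and 113065 RPM (lowest, median and highest), which is 4.43% to 11.3% of their reads. The highest of the 66 non-muscle samples held 2019 RPM and came from sciatic nerve. DESeq2 called 7 of the 10 higher and limma 9.

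miR-133a, which regulates cardiac growth and ion channels, was the most abundant of them. Its level was 62730, 80340, 84760, 37107 and 96251 RPM in heart replicates 1 to 5. Replicate 4 was lowest, and all 5 lay far above the other tissues, whose highest sample was a sciatic nerve with 1917 RPM. The log2 fold was 8.75 (SE 0.42, edgeR adjusted p = 5.07e-29), and heart was higher than each of the 14 tissues singly. Its other arm, hsa-miR-133a-5p, was far less abundant, at 110, 133, 115, 70.2 and 138 RPM, with a log2 fold of 6.94.

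miR-1, which shares its transcript with miR-133a (MIR1-2 and MIR133A are neighbours within MIB1), was present at 4702, 6365, 3164, 3544 and 4429 RPM. The 5 hearts were close to each other and did not overlap with any non-muscle sample, the highest of which was a colon sample at 65.4 RPM. The log2 fold was 10.41 (SE 0.45, edgeR adjusted p = 3.52e-30). By tissue median, colon (30.8 RPM) and ileum (20.9 RPM), organs with layers of smooth muscle, came next after heart. Within the heart libraries miR-133a reads outnumbered miR-1 reads by 10.5 to 26.8 times. miR-133b, which lies beside miR-206, was at 803, 1401, 1310, 597 and 1866 RPM, a log2 fold of 8.08 (SE 0.43), and its highest non-muscle sample was again a sciatic nerve, at 44.3 RPM.

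The miRNAs hosted by myosin genes differed more between the hearts. miR-208b, hosted by MYH7, the slow or beta myosin heavy chain, was at 3829, 3901, 171, 1165 and 5832 RPM. Replicate 3 was the lowest by a wide margin, yet it still exceeded the highest non-muscle sample, a testis with 27.9 RPM. The log2 fold of 10.70 (SE 0.38, edgeR adjusted p = 3.75e-36) was the largest of all tested miRNAs.

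miR-208a, hosted by MYH6, the fast or alpha myosin heavy chain, was highest where miR-208b was lowest. It had 5, 13, 839, 2 and 45 reads in replicates 1 to 5, or 0.633, 30.9, 522, 3.26 and 32.3 RPM. Replicate 3 stood far above the rest, and replicates 1 and 4 were at or near the floor. Of the reads of the pair, miR-208a took 0.0165%, 0.786%, 75.3%, 0.279% and 0.550%, and the 95% Wilson interval in replicate 3 was 72.7% to 77.8%. All 66 non-muscle samples held 3 reads or fewer, so mean RPM in heart was at least 27.4-fold higher, or at least 3.90-fold without heart replicate 3. edgeR called the difference (adjusted p = 9.79e-13) and DESeq2 did not (adjusted p = 0.220).

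miR-499, hosted by MYH7B, a further myosin heavy chain gene, was steadier, at 3752, 4139, 2161, 1806 and 4465 RPM. All hearts lay above the highest non-muscle sample, plasma at 104 RPM, and the log2 fold was 7.54 (SE 0.28, edgeR adjusted p = 1.3e-35). Its other arm, hsa-miR-499a-3p, was at 13.7, 33.3, 8.09, 6.53 and 35.1 RPM with a log2 fold of 6.05. hsa-miR-1-5p, at 2.66, 7.14, 5.60, 19.6 and 7.88 RPM, was at or under 3 reads in all non-muscle libraries, and its mean RPM in heart was at least 1.99-fold higher. DESeq2 did not call it (adjusted p = 0.211). The remaining arms, rno-miR-133b-5p, rno-miR-208b-3p and rno-miR-208b-5p, fell below the filter and were not tested.

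miR-206, the myomiR of skeletal muscle, had 9, 0, 2, 0 and 0 reads in the heart libraries. edgeR called it higher than the mean of the 14 tissues (log2 fold 1.68, adjusted p = 0.0352), but 6 of those tissues had 0 reads in all libraries, and the call was lost with DESeq2 (adjusted p = 0.788) and limma (adjusted p = 0.979) and without heart replicate 1 (0.428) or 3 (0.0844). A difference in miR-206 between heart and the non-muscle tissues was not detectable at this depth. The median over skeletal muscle was 276 RPM.

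**Figure D2:**
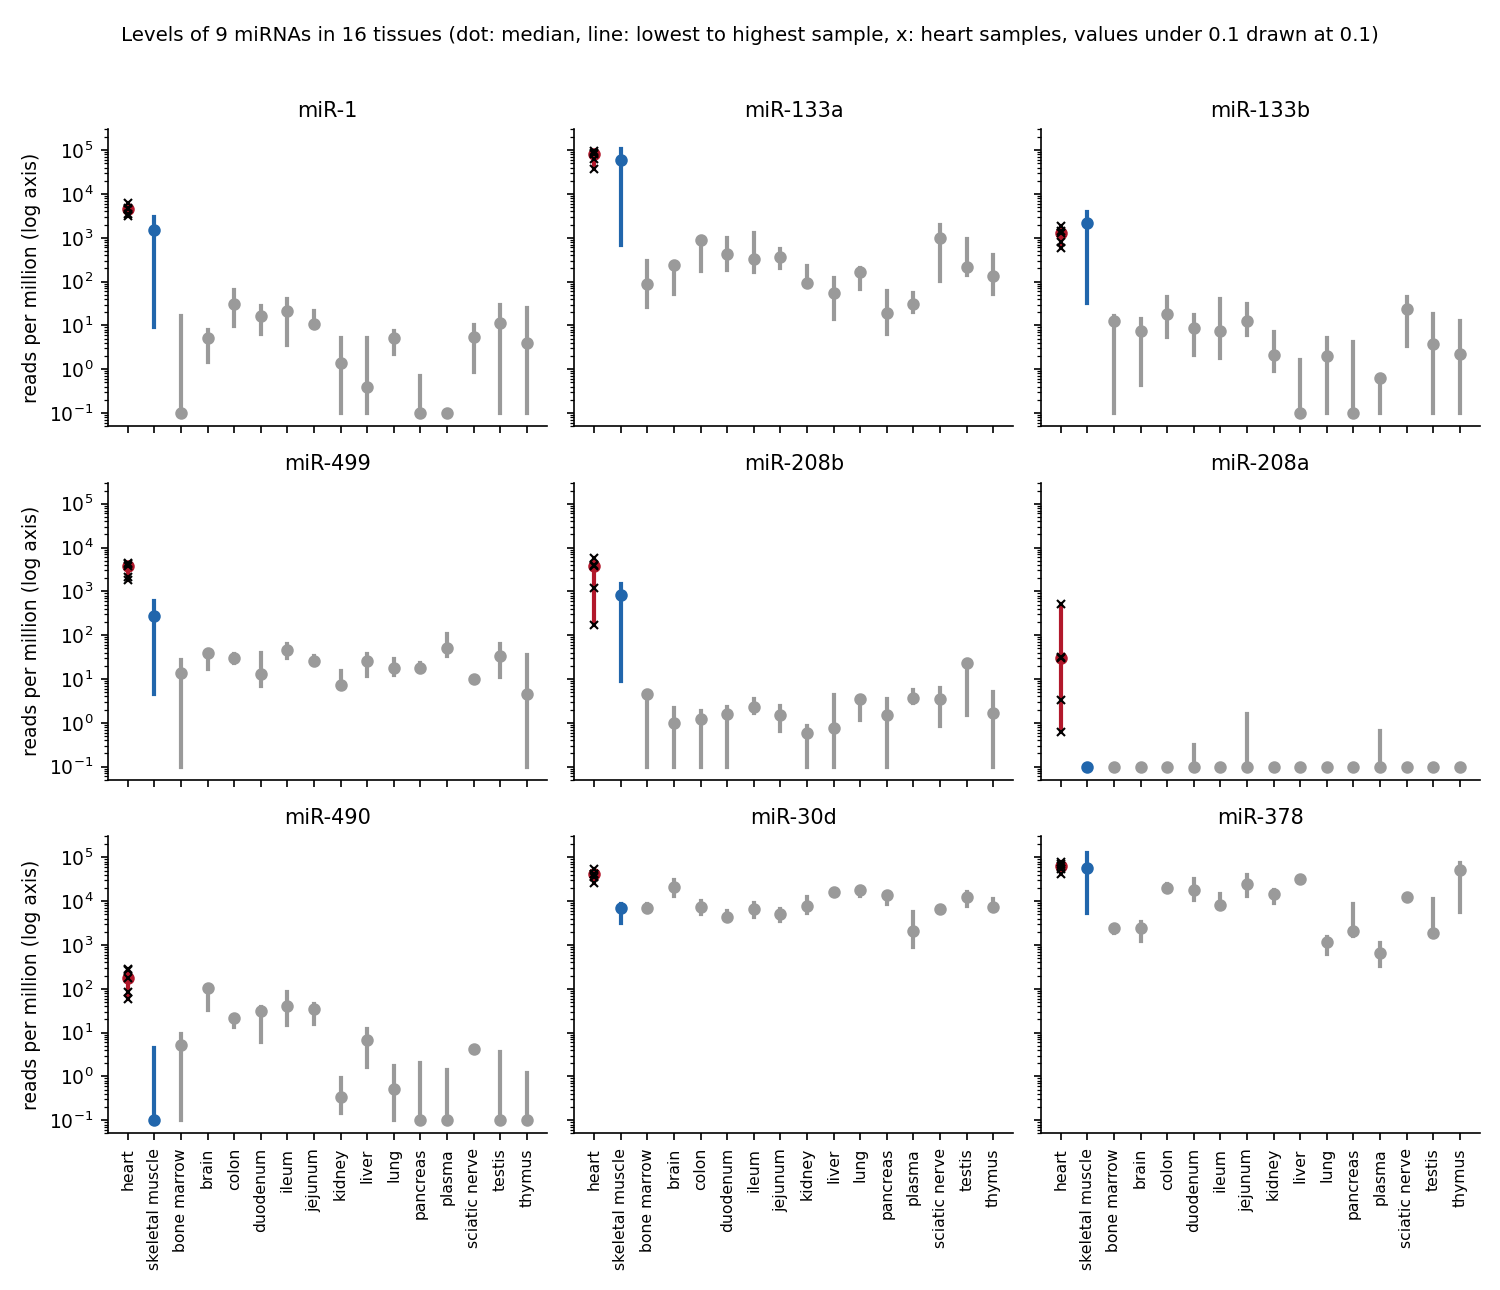
Levels of 9 miRNAs in RPM (vertical log axis, values under 0.1 drawn at 0.1) in the 16 tissues, with a dot for the tissue median, a line from the lowest to the highest sample and a cross for each heart sample (heart red, skeletal muscle blue). All hearts lie above every non-muscle sample for miR-1, miR-133a, miR-133b, miR-499 and miR-208b, while miR-208a spans 0.633 to 522 RPM within heart and the line of skeletal muscle falls to 9.07 RPM for miR-1.

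Read without a model, all 5 hearts lay above all 66 non-muscle samples for 8 of the 480 tested miRNAs (1.67%), which were miR-1, miR-133a, miR-133b, miR-208b, miR-30e, miR-499, hsa-miR-1-5p and hsa-miR-133a-5p. In most hearts hsa-miR-1-5p lay under 19.0 RPM, the floor of the shallowest library, so its order against that library is not resolved. The heart median exceeded the highest non-muscle sample more than 5-fold for 6 of 649 miRNAs (0.924%): 137-fold for miR-208b, 67.7-fold for miR-1, 41.9-fold for miR-133a, 36.0-fold for miR-499, 29.6-fold for miR-133b and 8.35-fold for hsa-miR-133a-5p. A second rule asked for a ratio of mean RPM above 5, a median above 100 RPM in some tissue and a two-sided exact rank-sum test, whose smallest possible p here is 1.54e-07. It found 8 heart-enriched miRNAs of 649 (1.23%), the 6 above with miR-490 and hsa-miR-378a-5p, and all 8 (100%) were among the 27 called over 5-fold by edgeR, of which they made up 29.6%. The matching rule for ratios below 1/5 found 26 heart-depleted miRNAs (4.01%), and 14 were shared with the 22 that edgeR called over 5-fold lower, 53.8% and 63.6% of each list.

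miR-490, hosted by CHRM2, the muscarinic receptor through which the vagus nerve slows the heart, separated heart from skeletal muscle. It was at 84.6, 178, 263, 58.7 and 282 RPM in heart, while the 5 muscle samples held at most 1 read. Brain came nearest, with a median of 102 RPM and a highest sample of 117 RPM, so the lowest hearts overlapped with brain, and ileum followed at 39.6 RPM. The log2 fold over the 14 tissues was 5.57 (SE 0.29, edgeR adjusted p = 3.26e-27), with heart higher than each of them. The other arm, hsa-miR-490-5p, at a heart median of 1.24 RPM, was not called (log2 fold 1.36, adjusted p = 0.0567), but was without heart replicate 1 (0.0460) or 2 (0.0471).

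miR-378, hosted by PPARGC1B, a coactivator of mitochondrial genes, was at 55581, 76965, 70410, 40602 and 64685 RPM. The hearts were alike, and thymus overlapped with them, with a median of 51826 RPM and a highest sample above 4 of the hearts. The log2 fold was 3.34 (SE 0.27), and heart was higher than 12 tissues singly. Its other arm, hsa-miR-378a-5p, had a larger log2 fold of 4.04 (SE 0.32) at a heart median of 429 RPM, with thymus again next at 187 RPM. Of the 3 detected miRNAs on the miR-378 list, these were the 2 that could be tested.

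The miR-30 family was called higher in heart as a whole, but its summed level overlapped with other tissues such as kidney and lung. The sum ran from 64325 to 134258 RPM in heart (median 124343). It ran from 64595 to 156745 RPM in kidney (median 96490) and from 72311 to 120297 RPM in lung (median 104944). All 11 detected members were called higher, 4 of them over 5-fold (23.1% and 5.62% of all tested miRNAs), with a median log2 fold of 1.93. All 11 were also called in each alternative fit by edgeR, DESeq2 or limma. By the rank-sum test on RPM, hsa-miR-30e-5p was not called at first. It gained that call with TMM scaling (adjusted p = 0.0456) and without heart replicate 4 (0.00612). miR-30d was at 53753, 41187, 41492, 26368 and 35921 RPM, with a log2 fold of 2.55 (SE 0.15, edgeR adjusted p = 2.17e-24). Heart was higher than each tissue singly, and only 1 non-muscle sample, a brain at 30215 RPM, exceeded the lowest heart. Its neighbour miR-30b was at 4435, 6004, 4783, 2248 and 5314 RPM (log2 fold 2.67, SE 0.20). miR-30e was at 1581, 1774, 1729, 1439 and 1342 RPM, and all 5 hearts lay above the highest other sample, a testis at 811 RPM (log2 fold 2.35, SE 0.17). miR-30a, the most abundant member in heart, was at 53405, 56165, 53502, 25867 and 51018 RPM, below the medians of kidney and lung, and heart was called higher than 10 tissues and lower than 1.

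Other families abundant in heart moved less. Beside the counts of this paragraph, 23.1% of all tested miRNAs were called higher and 18.3% lower. All 9 members of the miR-99, miR-100 and miR-125 list were called higher (median log2 fold 1.94, median ratio of mean RPM 1.80). Their log2 folds ran from 1.40 for hsa-miR-125a-3p to 3.82 for rno-miR-100-3p, the latter at 3.26 to 13.7 RPM. The call of hsa-miR-125a-3p was lost with plasma and bone marrow left out (0.62, adjusted p = 0.174). Of the 8 tested members of the miR-23, miR-24 and miR-27 clusters, 7 were called higher (median 1.33). miR-27b, at 57877, 55414, 46913, 27319 and 57973 RPM, had the highest heart median of all 15 tissues compared, with a log2 fold of 1.59, and hsa-miR-24-2-5p, at 65.3, 71.4, 72.2, 19.6 and 98.9 RPM, was higher than each tissue singly (log2 fold 2.67). In the miR-29 family, which targets collagen messenger RNAs, 3 of 6 tested members were called higher and 1 lower. hsa-miR-29c-5p was at 26.8, 47.6, 59.1, 34.3 and 62.4 RPM with a log2 fold of 2.49, and miR-29a fell by 0.66 on the log2 scale (adjusted p = 0.0301). That call was lost without heart replicate 2 (-0.60, adjusted p = 0.0876) or 4 (-0.46, adjusted p = 0.172).

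The 10 miRNAs with the highest heart medians held 73.9% of reads. In order they were miR-486 (113425 RPM), miR-143 (108305), miR-22 (92995), miR-133a (80340), miR-10b (78768), miR-378 (64685), miR-27b (55414), miR-30a (53405), miR-30d (41187) and miR-126 (39076). miR-486, which arises within the ankyrin gene ANK1 in muscle and red cells, was at 97637, 113425, 113246, 274598 and 119299 RPM, with replicate 4 far above the rest. Its log2 fold was 3.46 (SE 0.35), but plasma had a median of 579253 RPM and was higher than heart. miR-10b was at 95299, 78768, 42223, 213239 and 43755 RPM, again highest in replicate 4. It was called higher (log2 fold 1.37, adjusted p = 0.000832), but not without replicate 4 (0.69, adjusted p = 0.166).

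Of the endothelial, smooth muscle, fibroblast and erythroid lists, the endothelial list had the highest median ratio of mean RPM, at 2.24. It holds only the arms of miR-126. Both arms of miR-126, from the endothelial gene EGFL7, were called higher. miR-126 was at 39076, 44267, 30853, 12724 and 46484 RPM with a log2 fold of 2.07 (SE 0.22), and heart was higher than 13 tissues, lung with a median of 46480 RPM being the exception. hsa-miR-126-3p had a log2 fold of 1.67. By the rank-sum test on RPM, both arms lost the call without heart replicate 1, 2, 3 or 5 (adjusted p from 0.0553 to 0.130). miR-22, found in many tissues and studied in cardiac growth, was at 86623, 93109, 92995, 32511 and 108824 RPM, second to liver, with a log2 fold of 1.99 (SE 0.20). The rank-sum call of miR-22 was likewise lost without heart replicate 1, 2, 3 or 5 (adjusted p from 0.0629 to 0.0774).

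Smooth muscle miRNAs were called higher for all 4 members (23.1% of all tested miRNAs), with log2 folds of 0.85 to 2.10. Their median ratio of mean RPM was 0.982, so the sign of the list differed between the 2 measures. miR-143 was at 135203, 117495, 104373, 96567 and 108305 RPM in heart and at a median of 352130 RPM in colon, and heart ranked sixth of the 15 tissues. With plasma and bone marrow left out, 1 of the 4 members stayed called. hsa-miR-145-3p also lost the call with DESeq2 (adjusted p = 0.0831) and without heart replicate 1, 2, 3 or 5 (0.0977 to 0.270). Of the 5 fibroblast miRNAs, only hsa-miR-199b-5p was called higher (log2 fold 1.68), near the 23.1% of all tested miRNAs. The list's median was 0.54 on the log2 scale while its median ratio of mean RPM was 0.919.

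Of the 4 erythroid miRNAs, miR-486 alone was called higher, near the 23.1% of all tested miRNAs. miR-451, which is made in red cells, was at 2202, 1503, 7335, 377 and 2029 RPM in heart (log2 fold 0.19, adjusted p = 0.854), and the ratio of miR-486 to miR-451 reads ran from 15.4 in replicate 3 to 729 in replicate 4. Replicate 4 was thus highest in miR-486 and lowest in miR-451. The share of blood in these values was not tested. With plasma and bone marrow left out, all 4 were called higher. The list's median log2 fold was 0.78 and its median ratio of mean RPM 0.353.

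**Figure D3:**
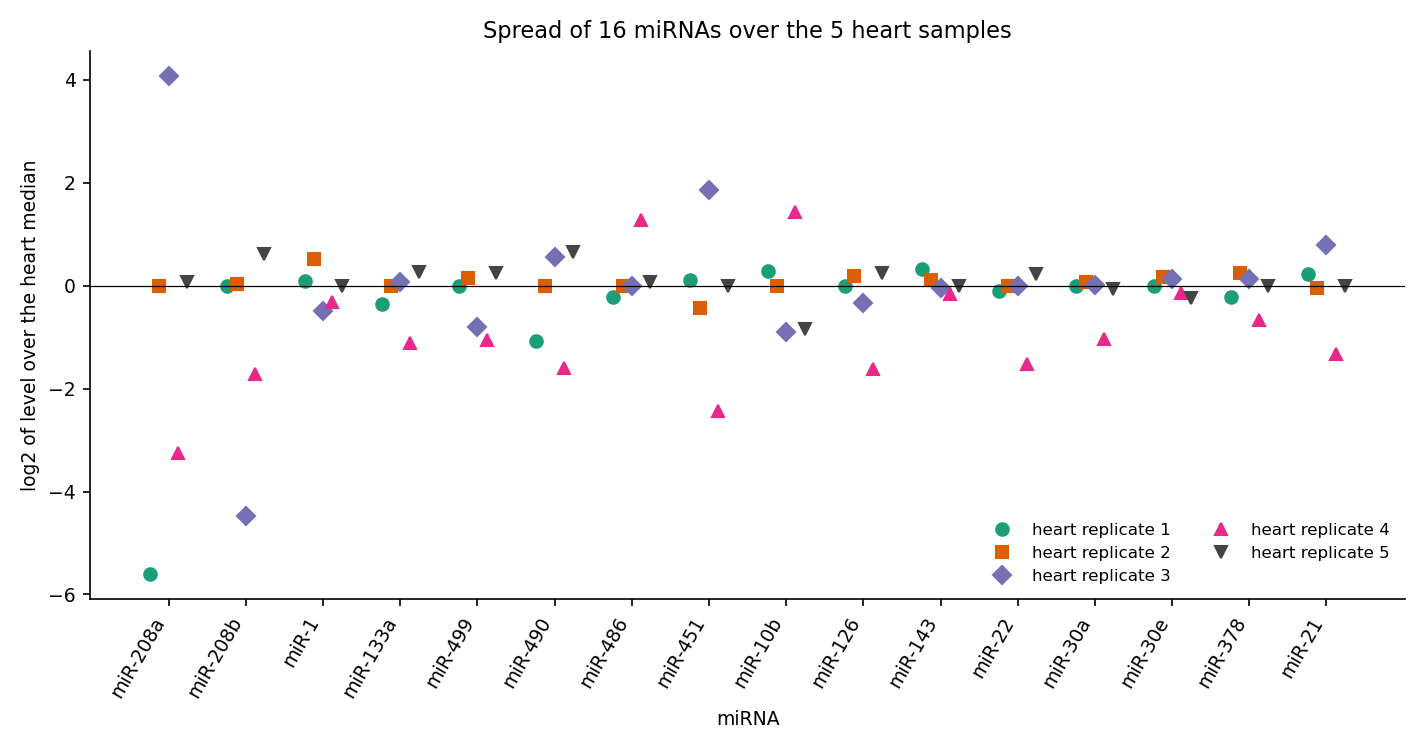
Log2 of the level of 16 miRNAs over the median of the 5 heart samples (vertical axis), 1 symbol per heart replicate. Replicate 3 (diamond) stands far above the others for miR-208a and below them for miR-208b, replicate 4 (triangle) is highest for miR-486 and miR-10b and lowest for miR-451, and miR-30e varies little, from 1342 to 1774 RPM.

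Over the 107 miRNAs with a heart median above 100 RPM, the median ratio of the highest to the lowest heart library was 2.67. It was under 2 for 27 of them and above 10 for 3, miR-208b (34.1), miR-451 (19.5) and miR-142 (10.9). The tightest were miR-181a (1.08) and miR-24 (1.11). miR-181a, at 30286 to 32738 RPM, was not called against the mean of the 14 tissues (log2 fold 0.09).

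Epithelial miRNAs formed the lowest group in heart. Of 24 detected members 20 were tested, of which 10 were called lower, all 10 over 5-fold (18.3% and 4.58% of all tested miRNAs), and 0 higher. The median log2 fold was -4.08 and the median ratio of mean RPM 0.0144. Each of the 10 uncalled members had at least 1 tissue with 0 reads in all libraries, and DESeq2 and limma each called 18 of the 20 lower. Summed, the list held 844, 1266 and 1859 RPM in heart (lowest, median and highest), below the lowest non-muscle median, bone marrow at 2230 RPM, and against 395234 RPM in jejunum. Skeletal muscle was lower still, with a median of 945.8 RPM. In every heart, miR-192 alone made up most of the sum, at 766 to 1511 RPM.

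miR-141 of the miR-200 family, which keeps cells in the epithelial state, was at 1.77, 14.3, 21.2, 6.53 and 30.1 RPM. The hearts were among the lowest samples, though 6 non-muscle samples lay below the highest of them, and pancreas reached a median of 16612 RPM. The log2 fold was -5.56 (SE 1.11, edgeR adjusted p = 3.06e-05), and heart was lower than 12 tissues. miR-203, a miRNA of stratified epithelium, was at 3.04, 0, 4.98, 4.89 and 1.43 RPM with a log2 fold of -5.00 (SE 0.73), lower than 13 tissues, with jejunum at 890 RPM. hsa-miR-200a-3p (-4.64) was lower than 12 tissues, and miR-182 (-4.33), miR-375 (-3.95) and miR-183 (-3.64) were each lower than 10. By the rank-sum test on RPM, miR-375 lost the call whichever heart replicate was left out (adjusted p from 0.0643 to 0.148). miR-183 and hsa-miR-200a-3p lost it without heart replicate 1, 2 or 5 (0.0590 to 0.0808). miR-375, of endocrine cells, was at 1.90 to 107 RPM in heart and at 148274 RPM in pancreas. miR-192, at 766 to 1511 RPM, was lower than 9 tissues singly (log2 fold -3.91).

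miR-21, a broadly expressed miRNA that rises in cell growth and fibrosis, was at 1931, 1596, 2830, 653 and 1647 RPM. Heart had the lowest median of the 15 tissues, and each of the 66 other samples exceeded the lowest heart while 7 lay below the highest. Brain was the next tissue at 2739 RPM and ileum the highest at 57124 RPM. The log2 fold was -2.59 (SE 0.38, edgeR adjusted p = 4.38e-08), with heart lower than 12 tissues and higher than none.

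Leukocyte miRNAs were also low. Of 8 tested, 7 were called lower, 4 of them over 5-fold (18.3% and 4.58% of all tested miRNAs), and 0 higher, with a median log2 fold of -2.22 and a median ratio of mean RPM of 0.0693. miR-155, of activated lymphocytes, was at 45.0, 42.8, 39.8, 44.1 and 41.6 RPM, the most even of the group, against 2264 RPM in ileum (log2 fold -2.55, SE 0.46). miR-146a, a brake on inflammatory signalling, was at 190, 54.7, 108, 295 and 60.2 RPM (-2.41), and miR-146b at 96.1, 2.38, 141, 53.8 and 12.9 RPM (-2.47), each lower than at least 10 tissues. By the rank-sum test on RPM, miR-146a lost the call without heart replicate 1, 2, 3 or 5 (adjusted p from 0.0593 to 0.0876). miR-146b lost it without replicate 2 (0.0622) or 5 (0.0590). hsa-miR-142-3p, at 3.26 to 26.8 RPM, fell by 2.62 on the log2 scale. The summed list stood at 452 to 1159 RPM in heart, with a median of 597 RPM. Kidney (488 RPM), skeletal muscle (537 RPM) and pancreas (590.3 RPM) had lower medians.

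Proliferation miRNAs of the miR-17 and related clusters were called lower for 14 of 19 tested members and higher for 0, beside 18.3% of all tested miRNAs called lower, with a median log2 fold of -1.26. The largest lower folds were those of hsa-miR-92a-1-5p (-3.06), which is near 0 in heart, and miR-18a (-2.68), at 5.57, 2.38, 13.1, 1.63 and 2.87 RPM. miR-92a, at 3004 to 7012 RPM, was not called by edgeR (log2 fold -0.51, adjusted p = 0.117), but was by DESeq2 (adjusted p = 0.0301). With plasma and bone marrow left out, 8 members were called lower. The 3 tested members of the miR-221 and miR-222 pair were all lower (median -1.89), miR-222 by 1.93 on the log2 scale against 13 tissues.

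**Figure D4:**
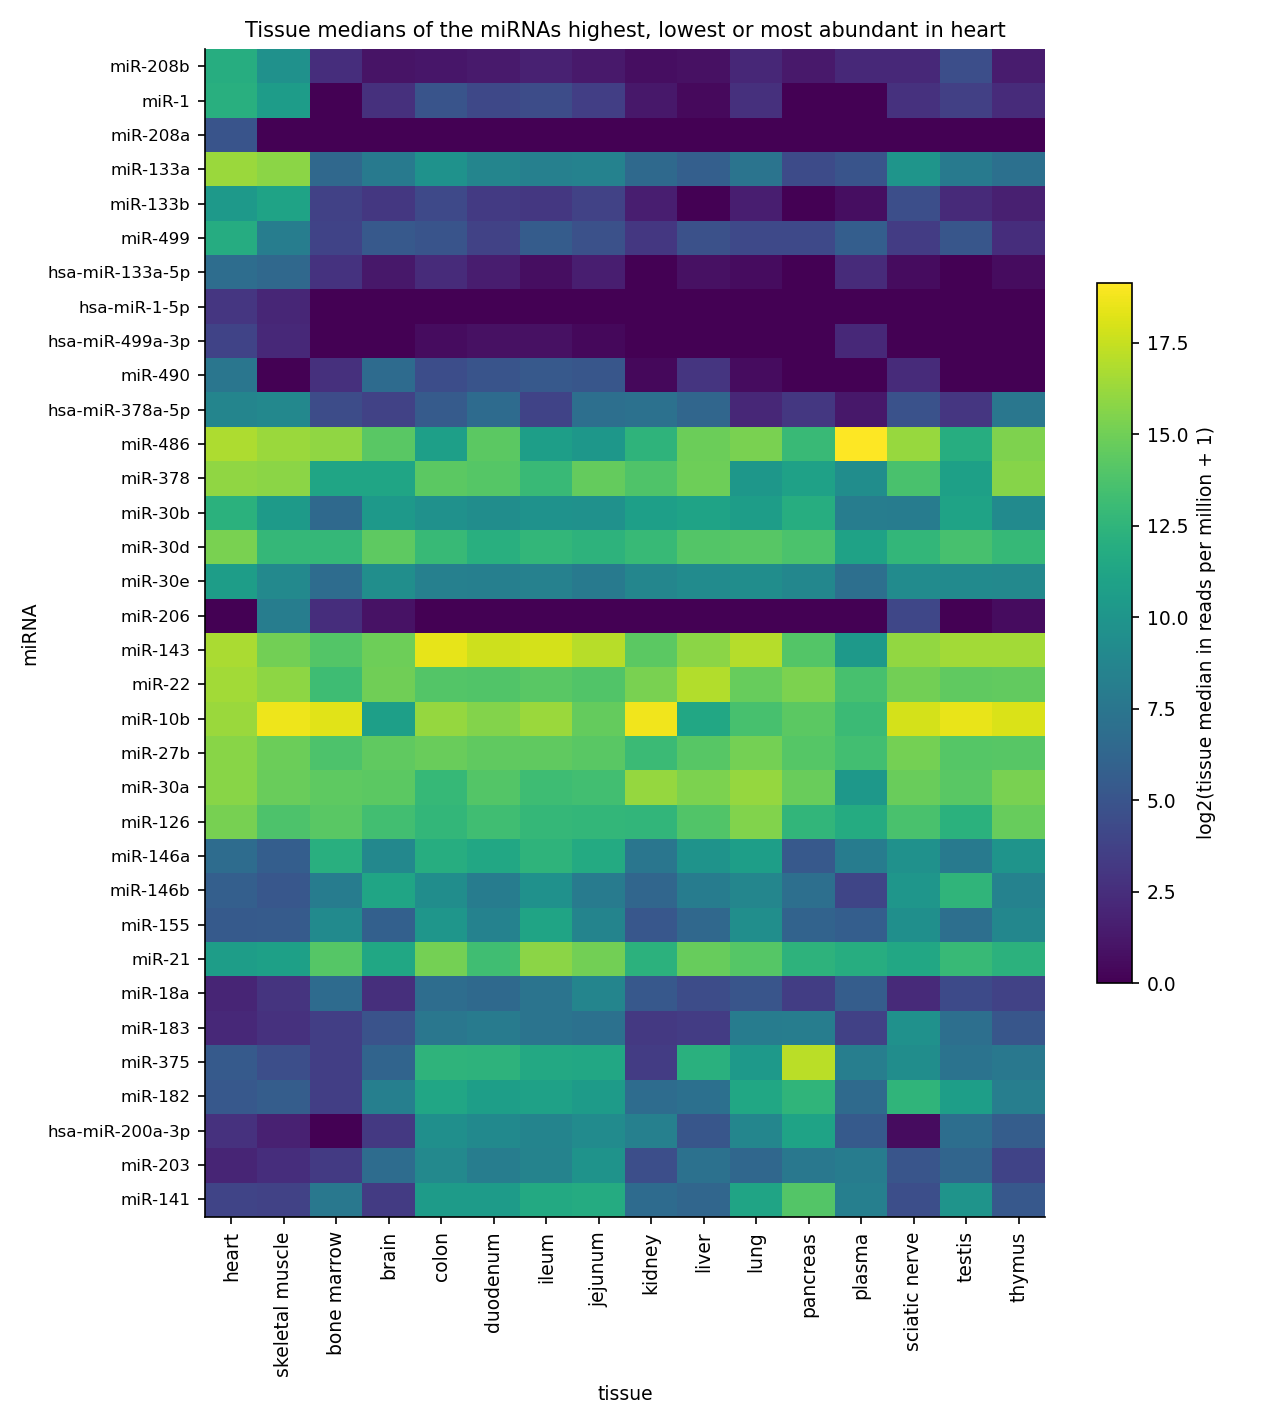
Tissue medians, as log2(RPM + 1), of the miRNAs with the largest folds either way and the highest levels in heart (rows), over the 16 tissues (columns). miR-1, miR-133b, miR-208b and miR-499 are brightest in heart and skeletal muscle, miR-208a and miR-490 are dark in skeletal muscle, and the epithelial miRNAs at the bottom are darker in heart than in the gut, with miR-375 brightest in pancreas (148274 RPM).

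The other lists served to check for tissue of another kind in the heart samples. Brain miRNAs summed to 243 to 768 RPM in heart against 84152 RPM in brain, and those of liver, pancreas and testis to at most 62.4 RPM against 59427 RPM in testis. Of 19 tested brain miRNAs 2 were called higher (miR-9 and hsa-miR-9-3p) and 2 lower, beside 23.1% and 18.3% of all tested miRNAs. Mean RPM of miR-9 in heart was nevertheless 0.0352 times that of the other samples. The call of hsa-miR-9-3p was lost with DESeq2 (adjusted p = 0.331), limma (adjusted p = 0.995) and without heart replicate 3 (adjusted p = 0.0501). The let-7 family was mixed, with 2 of 14 higher and 4 lower (23.1% and 18.3% of all tested miRNAs). Its median was 0.16 and its median ratio of mean RPM 0.735. miR-98 of that family fell by 1.68 on the log2 scale. The miRNAs of the imprinted DLK1-DIO3 cluster had 12 of 51 called higher by edgeR, near the 23.1% of all tested miRNAs, and 0 lower, with a median log2 fold of 0.78 but a median ratio of mean RPM of 0.410. Only 3 were called higher with DESeq2 and 2 with limma, and neither called any lower (1 at an unadjusted p under 0.05 with limma).

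The miR-15 and miR-16 family had 1 member called higher and 3 lower of 10 (23.1% and 18.3% of all tested miRNAs), with miR-497 at 0.87 and hsa-miR-15b-3p at -1.96. The miR-497 call was lost with library size alone, without the filter, with plasma and bone marrow left out, and without heart replicate 1, 3 or 5 (adjusted p from 0.0693 to 0.357). Of the miR-22 and miR-26 list 4 of 6 were called higher, beside 23.1% of all tested miRNAs. In the miR-10 and miR-196 list miR-10b alone was higher, and miR-196b, a miRNA of the posterior HOX genes, fell by 4.31 on the log2 scale to at most 1.63 RPM.

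**Figure D5:**
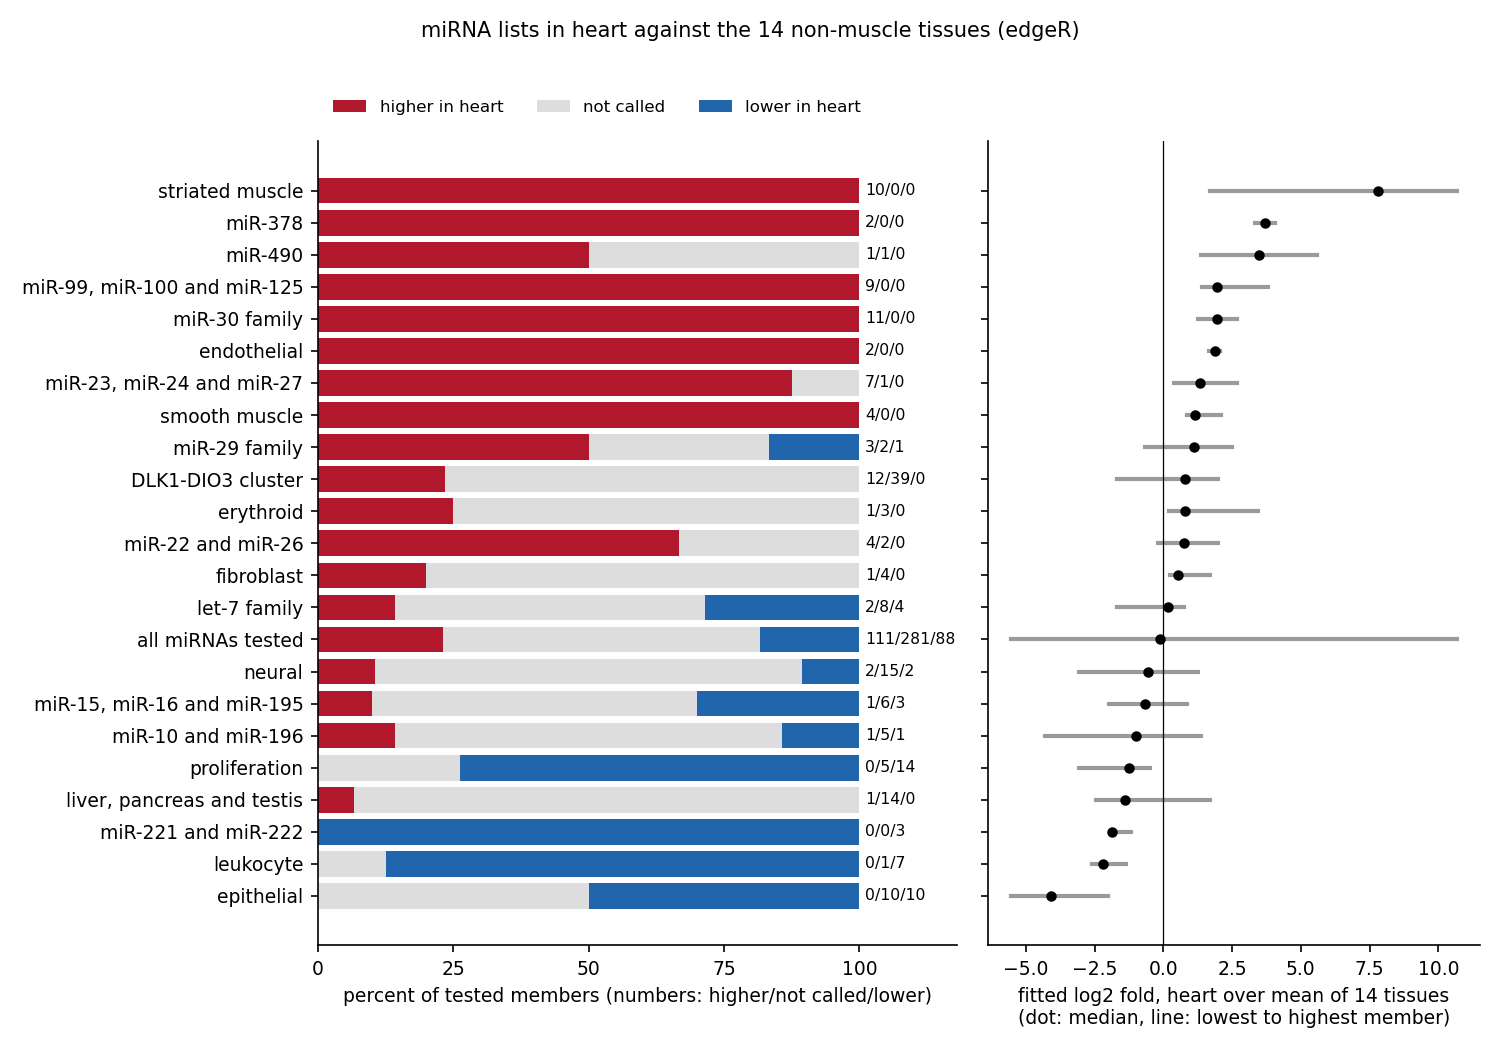
Percent of tested members of each list that edgeR called higher, lower or neither in heart (left, counts beside the bars) and the range and median of their fitted log2 folds over the mean of the 14 tissues (right). The striated muscle list has the highest median, 7.81, and the epithelial list the lowest, -4.08, against -0.12 for all 480 miRNAs.

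Singly, brain differed from heart in the most miRNAs, with 119 called higher in heart and 205 lower of 480. Plasma followed with 140 and 130. Sciatic nerve (59 and 88), kidney (65 and 91), duodenum (62 and 88) and thymus (64 and 105) were among the tissues with the fewest higher calls. Sciatic nerve had 2 samples where most tissues had 5.

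Skeletal muscle, the other striated muscle, shares the heart samples of the comparison above. Directly, 30 of 480 miRNAs were higher in heart (6.25%) and 31 lower (6.46%), and without muscle replicate 4 these were 20 (4.18%) and 24 (5.02%) of 478. Of the 27 miRNAs more than 5-fold higher than the 14 tissues, 9 were higher than skeletal muscle, 18 were not called and 0 were lower. With all muscle samples included, the 0 also held by DESeq2, by limma and at an unadjusted p under 0.05. Without muscle replicate 4, the unadjusted intervals of miR-133b and miR-378 lay below 0, as given below. The 27 were selected as high in these same heart samples, so the 0 is no independent result. The 9 were miR-208a, miR-208b, miR-30b, miR-30d, miR-30e, miR-490, miR-499, hsa-miR-30b-3p and rno-miR-100-3p. Without muscle replicate 4, 5 of the 9 stayed called, and miR-208b, miR-30e, hsa-miR-30b-3p and rno-miR-100-3p did not.

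miR-499 was higher in heart than in muscle by 3.01 on the log2 scale (SE 0.52, edgeR adjusted p = 1.33e-05; 2.64 without muscle replicate 4), and all 5 hearts lay above the highest muscle sample, at 593 RPM. miR-30d was higher by 2.14 (SE 0.27; 1.84 without that sample). miR-490 and miR-208a were at or near 0 in muscle, and mean RPM in heart was at least 25.5-fold and 17.3-fold higher. Without muscle replicate 4, the shallowest of the 5, these bounds were 34.0-fold and 23.1-fold. Without heart replicate 3 the bound of miR-208a fell to 2.47-fold, and DESeq2 did not call it (adjusted p = 0.646). miR-208b was higher by 1.78 (SE 0.60, edgeR adjusted p = 0.0365), but the call was lost with DESeq2 and without muscle replicate 4 (1.35, adjusted p = 0.128). With edgeR it was also lost with DESeq2's size factors (adjusted p = 0.0674) and without muscle replicate 1 (0.0909) or 5 (0.0851). The same held without heart replicate 1, 2 or 5 (0.0604 to 0.162).

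No difference was called for miR-1 (0.80, approximate 95% interval -0.57 to 2.17), miR-133a (-0.33, interval -1.70 to 1.04), miR-133b (-1.16, interval -2.59 to 0.27) or miR-378 (-0.60, interval -1.58 to 0.39). Without muscle replicate 4 they were 0.45 (-0.79 to 1.70), -0.71 (-1.96 to 0.54), -1.56 (-2.91 to -0.21) and -0.93 (-1.82 to -0.05) in the same order, and edgeR called none (adjusted p from 0.167 to 0.775). The unadjusted intervals of miR-133b and miR-378 then lay below 0. All these intervals leave room for a difference of over 2-fold in at least one direction. In the other direction, miR-206 was lower in heart (-9.10, and -9.53 without muscle replicate 4) and miR-10b was lower by a log2 difference of -2.55 (adjusted p = 0.000685, and -2.66 without that sample), with a muscle median of 416863 RPM.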

How the data were processed

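miR-seq reads of total RNA were counted per miRNA by the authors: adaptors were clipped, reads were aligned to CanFam 3.1, and reads overlapping a known or putative miRNA of dog, rat or human annotation were counted. The deposited counts and the deposited total of miRNA reads per sample are the count values used. The deposited RPM is a signal value the authors scaled to that total, and recomputed values differed by at most 2.89e-09 as a relative difference. The authors' maximum RPM column was not used. miRNAs absent for a sample were set to 0. Samples were grouped by tissue label. The table held 1 sample name with no certain label (not used), and 1 labelled colon sample had no values. A sample's counts summed to 0.0449% to 1.16% more than its total.

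edgeR 4.0.16 (R 4.3.3; TMM scaling, filter by tissue, quasi-likelihood test) was fitted over all 16 tissues, and heart was contrasted with the equal mean of the 14 non-muscle tissues, with each tissue and with skeletal muscle. p-values were adjusted by Benjamini-Hochberg (threshold 0.05, fold 5). DESeq2 1.42.0 and limma 3.58.1 were alternatives. The ratio of mean RPM (heart over non-muscle samples) used a two-sided exact rank-sum test (scipy 1.17.1), highly expressed miRNAs having a tissue median above 100 RPM. Values at or under 3 reads in every library were set to that floor, giving bounds. On simulated data for heart against the 14 tissues (472 miRNAs tested), 56.9%, 79.7% and 89.6% of log2 changes of 1, 2 and 3 were called, and 2.17% of unchanged miRNAs. The simulated counts were fitted with library size alone instead of TMM, and every tissue was given a nonzero level. These shares therefore do not apply to miRNAs that were not read in some tissue.

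The miRNAs named were the striated muscle list, up to 15 of the largest 5-fold calls each way (called against at least 10 tissues, above 100 RPM in some tissue), the 10 highest heart medians, and the largest and smallest fold of each other list. Further miRNAs singled out in the text were chosen after their values were seen. Samples, lists and rules were chosen with earlier results of these data known. Library totals ran from 157871 to 7896424 reads, and counts of heart libraries differed beyond counting error (chi-square per degree of freedom 59.2 to 1307).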

Additional observations from a re-analysis of the deposited data

Results flagged for a closer look

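Of 63 miRNAs examined over the 5 heart libraries, 7 had 1 library far from the other 4. Chance alone flags about 1 in 20 groups of independent, normally distributed values. That rate was not checked for RPM, whose values within a library share the same total. 4 of the 7 came from heart replicate 3 and 3 from replicate 4. In replicate 3, miR-208a reached 522 RPM (next highest 32.3), miR-222 279 RPM (next 112), miR-451 7335 RPM (next 2202) and rno-miR-100-3p 13.7 RPM (next 5.02). In replicate 4, miR-183 reached 24.5 RPM (next 7.47) and miR-486 274598 RPM (next 119299), while miR-30a was lowest at 25867 RPM (next 51018). Their causes were not tested.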

How the results depend on the processing

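No paired analysis was possible because the labels carry no dog number and the replicate numbers only name samples. Of the counts of the comparisons recomputed under the alternatives, 140 stayed within 1.5 times and 15 moved. The median log2 fold over all miRNAs, -0.12 with TMM, was -0.26 with DESeq2's size factors and -0.40 with library size alone, and ran from -0.45 to -0.11 with 1 heart replicate left out, while the striated muscle list kept medians of 6.65 to 7.93. With DESeq2, 42 miRNAs were more than 5-fold lower and 4 of the 5-fold higher were above skeletal muscle. With solid tissues only, 1 was lower than every tissue singly (miR-203). Depleted miRNAs by mean RPM, 26 at first, numbered 17 with skeletal muscle among the other tissues and 17 with libraries thinned to 158069 reads, enriched miRNAs 13 by medians, and heart median over the highest sample called 1 with skeletal muscle included (miR-499). Leaving out each heart replicate gave 21 to 35 5-fold lower miRNAs (35 without replicate 1), 5 to 8 above skeletal muscle (5 without replicate 1) and 12 to 24 depleted (14 without replicate 1 or 4, 12 without replicate 2 or 5). Leaving out each skeletal muscle replicate, added after seeing the data, gave 5 to 8 above skeletal muscle (5 without replicate 1 or 4). Reversed signs were hsa-miR-122-3p (-0.23 with limma), hsa-miR-221-5p (log2 ratio 0.0073) and hsa-miR-92a-1-5p (1.93), both thinned, and rno-miR-208b-3p (0.53 by medians). The causes were not tested. Of the named folds over the 14 tissues, 955 recomputed values kept direction and call, 37 lost the call, 11 gained it and 1 reversed. Depth limited miRNAs near the floor.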
